A study of Mus musculus with 12 samples.

Results

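The alveolar lipofibroblast is a fibroblast of the alveolar wall that stores neutral lipid in droplets and supports the epithelium beside it. Its state is described by 7 marker genes, and the rows of the deposited tables that carry these 7 symbols were taken, 7 of 40760 genes. Npnt encodes nephronectin, a matrix ligand of integrin alpha 8 beta 1. Inmt encodes an N-methyltransferase of indoleamines, Limch1 an activator of non-muscle myosin, and Slc7a10 a sodium-independent transporter of small neutral amino acids. Plin2 encodes perilipin 2, which coats lipid droplets, Lpl encodes lipoprotein lipase, which releases fatty acids from circulating triglyceride, and Pparg encodes the nuclear receptor that drives lipid storage programmes. As background, Plin2, Lpl and Pparg are not specific to fibroblasts, since lipid-laden and alveolar macrophages use all of them.

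Bulk RNA-seq was made from CD140a+ (Pdgfra+) cells sorted from the lungs of male mice, with 3 libraries in each of 4 groups. The groups were wild-type (WT) mice given vehicle, WT mice given bleomycin (bleo), an agent that injures the lung and is used to model fibrosis, and Pear1-/- mice given either. The methods give the mice as 8 to 12 weeks old, and the Pear1-/- allele as a knockout-first insertion present in all cells of the animal. The number of mice behind a library and the bleo dose and day for these libraries are not given in the sources used here. Replicates are therefore separate samples by label only, and p-values measure the spread between them, which may be technical.

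Total counts per library were between 6702948 and 10447101. Pear1, the targeted gene, had between 518.6 and 576 normalized counts in WT vehicle and, where the label was Pear1-/- vehicle, between 500.9 and 547. The ranges overlap, so the counts do not separate these labels, and the libraries are called by their label throughout. In bleo, Pear1 had between 239 and 266 normalized counts in WT and between 344 and 372 in the libraries labelled Pear1-/-. WT vehicle replicate 2 stood apart from WT vehicle replicates 1 and 3. Divided by its degrees of freedom, the chi-square of their counts (1 where libraries differ by counting noise) was 21.2 and 21.8 against them and 1.73, 2.13 and 2.67 against the libraries labelled Pear1-/- vehicle. Within each bleo group it was between 1.35 and 1.49, so replicates there differed by little more than counting noise. WT vehicle replicates 1 and 3 were at 1.58. Pear1-/- vehicle replicate 3 was at 4.31 and 4.82 against replicates 1 and 2 of its label, which were at 1.44 against each other. WT vehicle replicate 2 had 20643 genes above 3 counts, against 25994 and 26625 in replicates 1 and 3 and between 19576 and 20792 where the label was Pear1-/- vehicle. Changes of the 7 genes and counts of gene lists against WT vehicle are therefore also given with replicate 2 as its only library, and those of other genes at least where the fold moved by over 1.5 times. In that fit the lone library is assumed to vary like those of the other groups, which alone supply the spread, so the sizes of its differences are read rather than its p-values. Calls and counts of genes past the test in that fit rest on the same assumption and are descriptions only.

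By the annotation GENCODE M21 on GRCm38, Npnt (ENSMUSG00000040998) lies on the minus strand of chromosome 3 at 132881745 to 132950291, and Inmt (ENSMUSG00000003477) on that of chromosome 6 at 55170626 to 55175043. Limch1 (ENSMUSG00000037736) lies on the plus strand of chromosome 5 at 66745827 to 67057158, and Slc7a10 (ENSMUSG00000030495) on that of chromosome 7 at 35186385 to 35201114. Plin2 (ENSMUSG00000028494) is on the minus strand of chromosome 4 at 86648386 to 86670060. Lpl (ENSMUSG00000015568) is on the plus strand of chromosome 8 at 68880491 to 68907448, and Pparg (ENSMUSG00000000440) on that of chromosome 6 at 115360951 to 115490399.

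The promoter windows of the reference table run from 250 bases before to 50 bases after a start site (RefSeq, GRCm38.p6), and 6 of the 7 genes matched, with 11 windows. Lpl has no entry. The first windows of Npnt, Limch1, Inmt and Plin2 are shown, the first pair because those genes had the most alike profiles and the second because one fell and the other rose with bleo. Each is written 5′ to 3′ on the strand of its gene, and capitals mark AGGTCA, the box TATAAA or the box GGGCGG on either strand.
Npnt, chr3:132950242-132950541, minus strand: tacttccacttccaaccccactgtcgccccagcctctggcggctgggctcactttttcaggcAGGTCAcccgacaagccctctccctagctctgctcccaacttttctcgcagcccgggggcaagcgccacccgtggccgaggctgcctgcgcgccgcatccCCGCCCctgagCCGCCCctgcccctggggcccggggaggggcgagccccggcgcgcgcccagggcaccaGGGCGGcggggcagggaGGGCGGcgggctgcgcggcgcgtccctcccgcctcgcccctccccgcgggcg
Limch1, chr5:66745639-66745938, plus strand: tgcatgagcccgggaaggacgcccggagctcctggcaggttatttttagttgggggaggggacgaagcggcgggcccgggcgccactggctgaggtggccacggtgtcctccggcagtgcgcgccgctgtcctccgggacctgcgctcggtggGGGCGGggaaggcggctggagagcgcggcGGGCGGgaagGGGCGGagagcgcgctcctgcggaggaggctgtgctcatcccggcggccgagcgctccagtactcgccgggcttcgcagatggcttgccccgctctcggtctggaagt
Inmt, chr6:55174941-55175240, minus strand: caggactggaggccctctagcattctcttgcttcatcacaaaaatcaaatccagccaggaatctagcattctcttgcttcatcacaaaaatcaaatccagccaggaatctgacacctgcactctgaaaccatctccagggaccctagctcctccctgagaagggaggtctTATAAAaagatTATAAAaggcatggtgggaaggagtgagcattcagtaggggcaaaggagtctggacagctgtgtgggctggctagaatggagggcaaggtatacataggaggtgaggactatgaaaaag
Plin2, chr4:86670010-86670309, minus strand: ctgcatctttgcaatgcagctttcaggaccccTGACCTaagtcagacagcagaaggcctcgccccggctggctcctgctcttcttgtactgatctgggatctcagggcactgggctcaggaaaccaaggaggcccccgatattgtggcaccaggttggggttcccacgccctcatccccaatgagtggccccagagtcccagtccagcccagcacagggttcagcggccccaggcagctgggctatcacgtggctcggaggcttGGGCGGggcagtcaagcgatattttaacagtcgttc
AGGTCA, the core element of nuclear receptors such as PPAR gamma, was found in 6 of the 11 windows, against 16.3% of all 32851 windows of this length. Its direct repeat with any base between the copies was found in 0 of the 11 and in 0.0396% of all windows. GGGCGG, the GC box, was found in 6 of the 11 windows, against 35.7% of all. TATAAA was found in 3 of the 11, against 13.6% of all, and the Inmt window holds it at 80 and again at 69 bases before the start site.

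In WT, all 7 genes changed with bleo, in opposite directions. Npnt, Inmt, Limch1 and Slc7a10 were lower, and Plin2, Lpl and Pparg were higher. Each passed edgeR's quasi-likelihood test (adjusted p under 0.05 over the 17418 genes tested), and 6 also passed a fold change of 2, 4 of them lower and 2 higher. Of all genes tested, 68.0% passed the test and 33.9% passed both criteria (10.5% higher and 23.5% lower), so calls as such were common in this comparison. The groups did not overlap for 7 of the 7 genes, which was also true of 68.7% of all genes.

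Npnt had 6607, 2790.4 and 6342 normalized counts in WT vehicle replicates 1, 2 and 3, and 1515, 1496 and 1537 in WT bleo. Replicate 2 lay far below the other 2 vehicle libraries, yet above every WT bleo library. The log2 fold change was -1.78 (SE, its standard error, 0.22, adjusted p = 3.39e-06). Limch1 had 3403, 1791 and 3173 normalized counts in WT vehicle and 1032, 1014 and 995 in WT bleo, again with vehicle replicate 2 low. Its log2 fold change was -1.45 (SE 0.16, adjusted p = 1.59e-06). With only replicate 2 kept in WT vehicle, the log2 fold change was -0.86 for Npnt and -0.81 for Limch1, both under a fold change of 2.

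Inmt, whose level was the highest of the 7 genes per kilobase of exon in every group, had 34443, 26892 and 31813 normalized counts in WT vehicle. In WT bleo it had 3153, 3071 and 3201, and its log2 fold change was -3.29 (SE 0.087, adjusted p = 1.2e-13). Slc7a10 had 268, 116 and 196 normalized counts in WT vehicle and 19.3, 12.2 and 15.2 in WT bleo. Its log2 fold change was -3.59 (SE 0.30, adjusted p = 6.43e-08). Against replicate 2 alone, the log2 fold change was -3.08 for Inmt and -2.86 for Slc7a10. These were the steepest falls of the 7, and the bleo libraries of both genes lay close together. Slc7a10 shares exonic bases with Lrp3 on the opposite strand, and whether counting used strand is not stated.

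Lpl had 874, 922 and 821 normalized counts in WT vehicle and 7405, 7482 and 7333 in WT bleo. The log2 fold change was 3.10 (SE 0.066, adjusted p = 1.73e-14). Plin2 had 1700.2, 1913 and 1564 normalized counts in WT vehicle and 3598, 3647 and 3607 in WT bleo. The rise was smaller than that of Lpl, a log2 fold change of 1.08 (SE 0.077, adjusted p = 9.84e-09). Pparg was a low-count gene, with 110.4, 72 and 120.2 normalized counts in WT vehicle and 181, 203 and 185 in WT bleo. Its log2 fold change was 0.93 (SE 0.17, adjusted p = 2.1e-04), under a fold change of 2. With only replicate 2 kept in WT vehicle it was 1.41, against 3.02 for Lpl and 0.93 for Plin2, so Pparg was then over a fold change of 2 and Plin2 under it. Without WT vehicle replicate 1 or 3, or WT bleo replicate 1, all 7 genes were past both criteria, in place of 6.

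**Figure D1:**
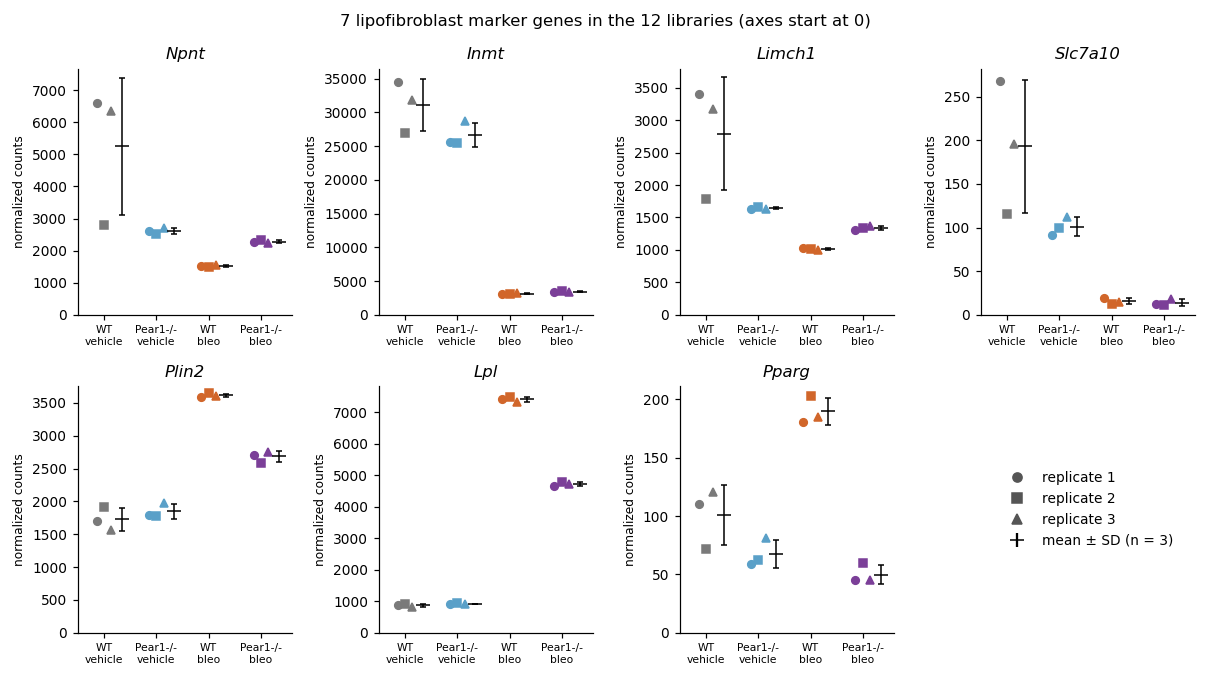
Normalized counts (vertical axes, from 0) of the 7 genes in each library of the 4 groups, with black marks for the mean ± SD (n = 3). WT vehicle replicate 2 (square) lies nearer to the libraries labelled Pear1-/- vehicle than to replicates 1 and 3 for all 7 genes, and Lpl is between 7333 and 7482 in WT bleo against 821 to 922 in WT vehicle.

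The rise of the lipid genes came with a rise of macrophage markers in the sorted libraries. The sum of 12 macrophage markers such as C1qa, C1qc and Fcgr1, which encode complement subunits and an Fc receptor, was between 17828 and 20125 normalized counts in WT vehicle and between 165983 and 166557 in WT bleo. All 12 rose, with a median log2 fold change of 3.67 (3.70 with only replicate 2 kept in WT vehicle). Of 11 tested alveolar macrophage markers 7 rose and 2 fell, beside the 68.0% of all genes that changed. Their log2 fold changes ran from -2.82 to 3.30, with a median of 1.87 (1.54 against replicate 2 alone), so they did not move as 1 group. Mrc1, the mannose receptor, at 3.30 and Itgax, which encodes CD11c, at 2.88 were among the largest rises. Pdgfra itself, the gene of the sorted protein, fell, with a log2 fold change of -1.74 (SE 0.067, adjusted p = 8.51e-12), or -1.61 against replicate 2 alone. The part of these cells in the changes of Plin2, Lpl and Pparg was not tested, and in bulk samples fewer cells of a type and less RNA per cell cannot be told apart. Adipocyte markers were close to absent, with a summed level of at most 69.1 normalized counts over 7 genes in any library.

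**Figure D2:**
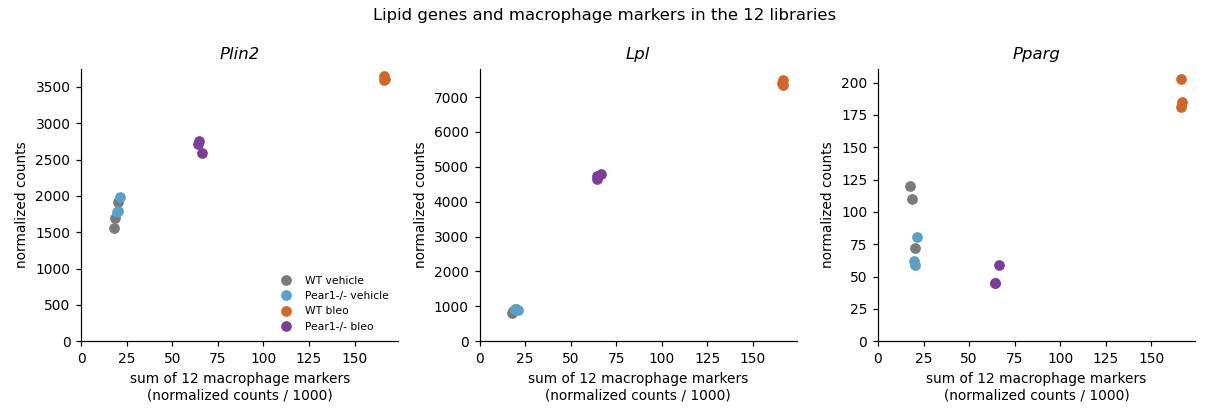
Normalized counts of Plin2, Lpl and Pparg (vertical axes) against the sum of 12 macrophage markers (horizontal axes, normalized counts divided by 1000), with 1 point per library coloured by group. The WT bleo libraries are highest on both axes, and for Pparg the libraries labelled Pear1-/- bleo lie below the WT vehicle libraries, with a macrophage sum between those of WT vehicle and WT bleo.

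Set against Pdgfra, the 4 falling genes parted. Per 100 Pdgfra counts, Npnt had a median of 135 in WT vehicle (67 to 138) and 112 in WT bleo (110 to 112), and Limch1 had 67.5 (42.7 to 70.9) and 75.8 (71.4 to 76.6). For Npnt the low end of the vehicle range was replicate 2 alone, with replicates 1 and 3 at 138 and 135, so the WT bleo values lay below those 2 libraries and above replicate 2. For Limch1 the WT bleo values lay just above replicates 1 and 3, at 70.9 and 67.5, and well above replicate 2. Inmt had 677 in WT vehicle (641 to 717) and 230 in WT bleo (229 to 234), and Slc7a10 had 4.17 (2.76 to 5.58) and 1.09 (0.91 to 1.43), so both stayed lower, also than replicate 2 alone. These ratios are descriptions without a test, since Pdgfra changed too.

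**Figure D3:**
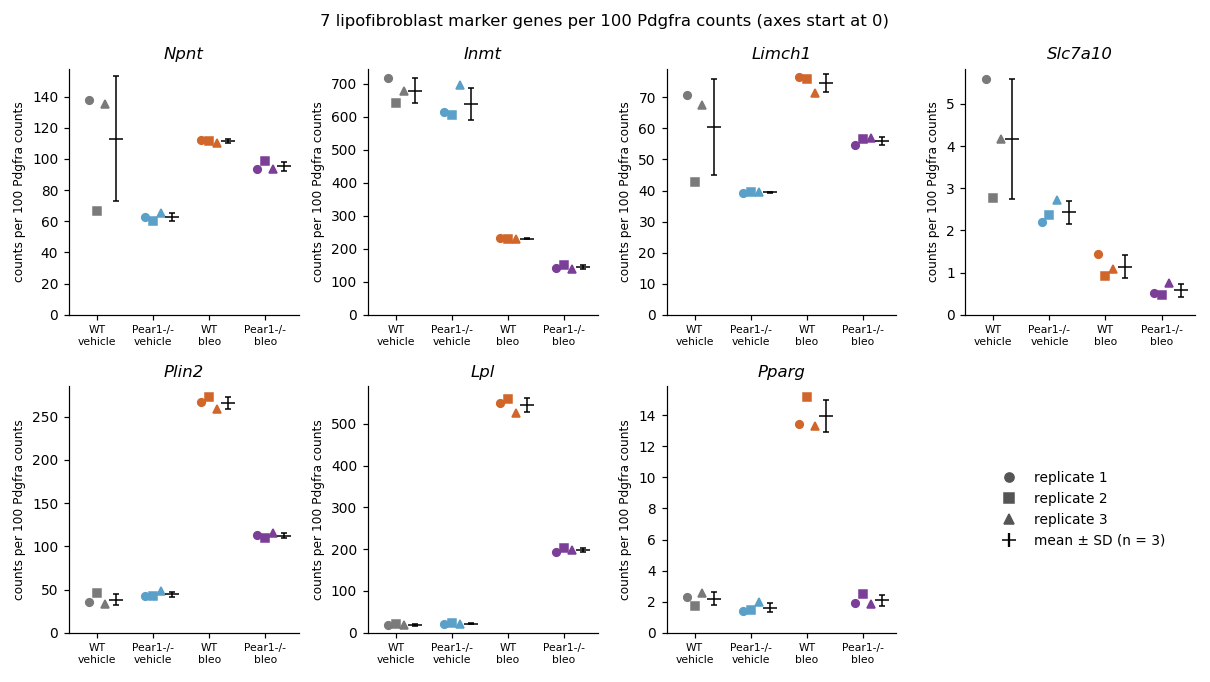
Counts of each gene per 100 Pdgfra counts (vertical axes, from 0) in each library, with black marks for the mean ± SD (n = 3). Inmt and Slc7a10 remain lower in bleo on this scale, while Npnt in WT bleo (110 to 112) lies below WT vehicle replicates 1 and 3 and above replicate 2, and Limch1 (71.4 to 76.6) lies above all 3.

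In the libraries labelled Pear1-/-, bleo was set against vehicle in the same way. Inmt and Slc7a10 fell and Plin2 and Lpl rose, while Npnt, Limch1 and Pparg did not pass the test. These last 3 did pass it when WT vehicle replicate 2 was left out of the shared fit, with log2 fold changes of -0.21, -0.31 and -0.43, but so did 68% of all genes. They also passed it with only the groups compared (-0.20, -0.30 and -0.42), where 11338 of 15764 genes had an unadjusted p under 0.05. With replicate 2 as the only WT vehicle library the log2 fold changes were -0.17, -0.27 and -0.39. The test was passed by 4 of the 7, against 62.3% of all genes, and both criteria by 3, against 27.8%. The groups did not overlap for 6 of the 7, against 70.9% of all genes. Inmt went from 25636, 25475 and 28712 normalized counts in vehicle to 3393, 3583 and 3360.0 in bleo, a log2 fold change of -2.94 (SE 0.086, adjusted p = 7.17e-13). Slc7a10 went from 91.9, 99.3 and 112 to 12.4, 11.2 and 18.1, a log2 fold change of -2.86 (SE 0.32, adjusted p = 2.05e-06). Both falls separated the groups completely. Lpl rose from between 901 and 928 to between 4659 and 4790.5, a log2 fold change of 2.38 (SE 0.064, adjusted p = 2.69e-13). Plin2 rose by 0.54 on the log2 scale (SE 0.077, adjusted p = 2.11e-05). Npnt had between 2520 and 2694 normalized counts in vehicle and between 2245 and 2334 in bleo, a log2 difference of -0.19 (SE 0.21, adjusted p = 0.446). For Limch1 it was -0.29 (SE 0.16, adjusted p = 0.128) and for Pparg -0.42 (SE 0.20, adjusted p = 0.089). Per 100 Pdgfra counts both Npnt (93 to 98 against 60 to 65) and Limch1 (54.5 to 56.9 against 39.2 to 39.6) were higher in bleo than in vehicle. The 12 macrophage markers all rose here too, with a median log2 fold change of 1.88 and a sum that went from between 19694 and 21333 to between 64196 and 66512 normalized counts. Of 10 alveolar epithelial markers 7 were lower and 1 higher, with a sum that went from between 26276 and 30315 to between 3758 and 3941, and of 8 endothelial markers 7 were lower and 0 higher, with a sum that went from between 4138 and 4544 to between 2205 and 2369. The part of these cells was not tested.

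The change with bleo differed between the genotype labels for 6 of the 7 genes, by the interaction term (adjusted p under 0.05, which 37.0% of all genes reached), and 3 passed both criteria, against 15.7% of all genes. The interaction was 1.59 on the log2 scale for Npnt (SE 0.30, adjusted p = 7.36e-04) and 1.16 for Limch1 (SE 0.23, adjusted p = 0.00106), with the steeper fall in WT. It was -1.35 for Pparg (SE 0.27, adjusted p = 0.00117), -0.72 for Lpl (SE 0.086, adjusted p = 1.51e-05) and -0.54 for Plin2 (SE 0.11, adjusted p = 0.00136), with the more positive change in WT. For Inmt it was 0.35 (SE 0.11, adjusted p = 0.0244), and this call was lost in 13 of 20 alternatives, with adjusted p up to 0.163. For Slc7a10 it was 0.74 (SE 0.50, adjusted p = 0.266), and without WT vehicle replicate 2 it was 0.92 (adjusted p = 0.0297). With only replicate 2 kept in WT vehicle the interaction was 0.69 for Npnt and 0.53 for Limch1, less than the 1.59 and 1.16 above by more than 1.5 times, and 0.15 for Inmt and 0.02 for Slc7a10. For Pparg, Lpl and Plin2 it was then -1.80, -0.63 and -0.37.

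Within bleo, the libraries labelled Pear1-/- differed from WT most in Pparg. It had 45.3, 59.3 and 44.8 normalized counts against 181, 203 and 185 in WT bleo, a log2 fold change of -1.94 (SE 0.18, adjusted p = 5.82e-07), the only one of the 7 past both criteria (15.0% of all genes). The test was passed by 4 of the 7, against 46.0% of all genes, and the groups did not overlap for 6 of the 7, against 62.9% of all genes. Lpl had 4659, 4790.5 and 4729 normalized counts against 7405, 7482 and 7333, a log2 fold change of -0.66 (SE 0.060, adjusted p = 3.83e-07). Plin2 had 2708, 2588 and 2760.4 against 3598, 3647 and 3607, a log2 fold change of -0.44 (SE 0.076, adjusted p = 2.21e-04). Macrophage markers moved the same way, with 12 of 12 lower and a sum between 64196 and 66512. So did 8 of 11 alveolar macrophage markers, with 1 higher, and 7 of 10 alveolar epithelial markers, with 2 higher and a sum between 3758 and 3941 against 11143 to 11378 in WT bleo. The part of these cells was not tested. Mesenchymal markers moved the other way, with 7 of 8 higher, among them Col1a1, a chain of type I collagen, at 1.73.

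The counts of Npnt were 2255, 2334 and 2245 where the label was Pear1-/- bleo against 1515, 1496 and 1537 in WT bleo, a log2 fold change of 0.57 (SE 0.21, adjusted p = 0.0362). The groups did not overlap, but the call was lost in 10 of 21 alternatives, among them edgeR's robust option with the highest adjusted p, 0.119. Limch1 was 0.39 higher on the log2 scale (SE 0.16, adjusted p = 0.0611). Inmt differed by 0.12 (adjusted p = 0.237) and Slc7a10 by -0.20 (adjusted p = 0.749). None of these 3 passed the test, but Limch1 did in 7 of 21 alternatives, among them those without any 1 of the 3 WT vehicle libraries, and Inmt did in 2, with only the groups compared and with replicate 2 as the only WT vehicle library. Set against Pdgfra, the direction turned for Npnt, Limch1 and Inmt. Per 100 Pdgfra counts Npnt had between 93 and 98 where the label was Pear1-/- bleo against 110 to 112 in WT bleo, and Limch1 had between 54.5 and 56.9 against 71.4 to 76.6. Inmt had between 140 and 151 against 229 to 234.

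Between the vehicle groups, Npnt, Limch1 and Slc7a10 were lower in the libraries labelled Pear1-/-, but the calls changed with the libraries in the shared fit, bleo libraries included. The log2 fold changes were -1.02 for Npnt (SE 0.21, adjusted p = 0.0388), -0.77 for Limch1 (SE 0.16, adjusted p = 0.0388) and -0.93 for Slc7a10 (SE 0.23, adjusted p = 0.0426), and 1 gene, Npnt, passed both criteria (2.36% of all genes, with 4.5% past the test). The groups did not overlap for these 3 of the 7, against 19.2% of all genes. With edgeR's robust option Npnt had adjusted p = 0.0564 and 0 of the 7 passed both criteria. Without WT vehicle replicate 2, Npnt and Slc7a10 passed both criteria, as did 24.2% of all genes in that fit. Without any 1 of the other 11 libraries, 0 of the 7 did in edgeR's test, although 4 or 5 of them still had an unadjusted p under 0.05. With replicate 2 alone in WT vehicle, the differences were -0.10 for Npnt, -0.13 for Limch1 and -0.20 for Slc7a10. Inmt (-0.23), Pparg (-0.59), Plin2 (0.09) and Lpl (0.06) did not pass the test, but did without WT vehicle replicate 2, where 55.2% of all genes passed it.

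**Figure D4:**
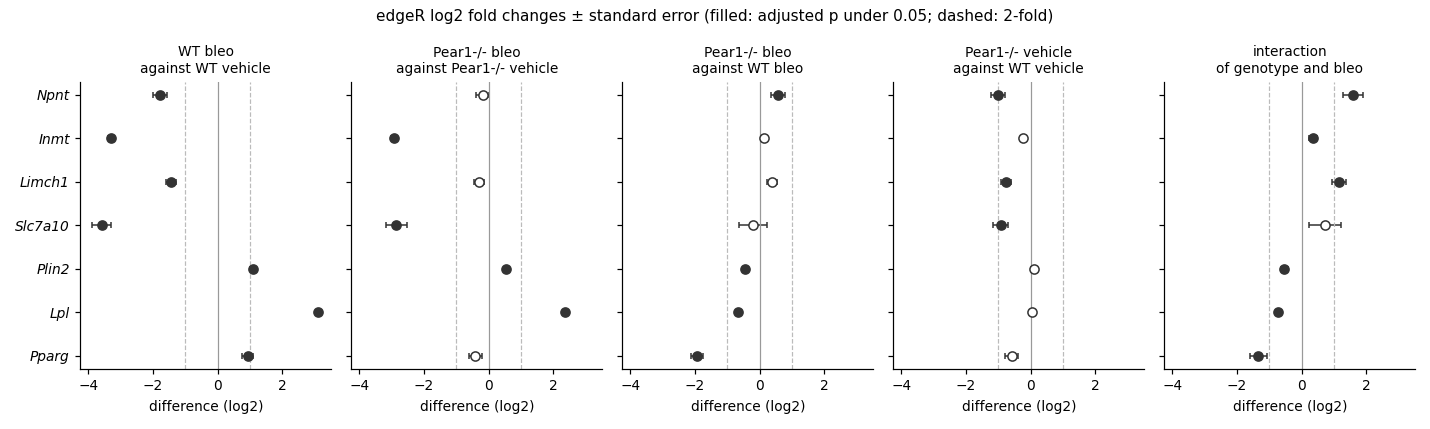
Log2 fold changes of the 7 genes in 4 comparisons and the interaction of genotype label and bleo (horizontal axes, log2, bars are standard errors). Filled points passed edgeR's test (adjusted p under 0.05), and dashed lines mark a fold change of 2. In WT bleo all 7 points are filled, from -3.59 for Slc7a10 to 3.10 for Lpl.

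Compared per kilobase of exon, Inmt ranked first of the 7 in every group, while the genes below it changed places. In WT vehicle Inmt was at 2311 ± 437 CPM per kilobase (SD, n = 3), followed by Npnt at 126 ± 57.3, Plin2 at 57.9 ± 2.3, Limch1 at 32.7 ± 12, Slc7a10 at 11 ± 4.9, Lpl at 9.84 ± 0.39 and Pparg at 4.10 ± 1.3. The neighbours Slc7a10 and Lpl lay within the spread of the former. Their order rests on the length used, the exon bases of all transcripts together, 2111 for Slc7a10 and 10478 for Lpl. Before that division Lpl had between 99.7 and 108 CPM in WT vehicle and Slc7a10 between 12.5 and 33.0. In replicate 2 alone Npnt, at 60.0, was close to Plin2, at 58.9, and Slc7a10, at 5.92, was below Lpl, at 9.52. In WT bleo Inmt at 221 ± 4.8 and Plin2 at 115.7 ± 0.78 led, Lpl had moved up to 79.4 ± 0.73, Npnt stood below it at 33.9 ± 0.49, and Slc7a10 was last at 0.83 ± 0.19.

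The gene whose profile over the 12 libraries was most like that of each member was found by correlation. Among 10702 genes compared, Npnt was most like Limch1 (Pearson r of log2 CPM 0.993). Inmt was most like Akap12, a kinase anchoring protein (r = 0.998), and Slc7a10 most like Amph (r = 0.992). Plin2 was most like Acp5, the tartrate-resistant phosphatase of osteoclasts and macrophages (r = 0.998), and Lpl most like Il1b, the cytokine interleukin 1 beta (r = 0.999). Pparg was most like Soga1 (r = 0.986). With 4 groups behind 12 libraries, high values of r are common and are given as a description. Among the 7 genes, Inmt and Slc7a10 had r = 0.975, Plin2 and Lpl r = 0.969, and Inmt and Lpl r = -0.988. Pparg followed neither side closely, with r = 0.44 with Plin2, 0.32 with Lpl and between -0.17 and -0.06 with the 4 falling genes.

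Other genes of the alveolar fibroblast were lower in WT bleo, as were markers of other cell types. Of 10 alveolar epithelial markers 7 were lower and 2 higher (6 and 1 against replicate 2 alone), with a sum between 11143 and 11378 normalized counts against 22071 to 27015 in WT vehicle and Sftpc, the surfactant protein of type II cells, at -1.22 on the log2 scale. Of 8 endothelial markers 7 were lower and 0 higher, with a sum between 1987 and 2102 against 3483 to 4268, and of 8 mesenchymal markers 6 were lower and 2 higher, with the same counts against replicate 2 alone. The part of any of these cells in the falls was not tested. Of 11 alveolar fibroblast genes tested, 11 were lower in WT bleo than in WT vehicle, where 36.6% of all genes were lower, and 9 of them were past both criteria, as were 23.5% of all genes in that direction. The median log2 fold change was -1.52 against -0.07 for all genes tested. Against replicate 2 alone 10 were lower, 7 past both criteria, with a median of -1.23. Itga8, the integrin subunit that binds nephronectin, fell from 3306 ± 882 to 606 ± 59.7 normalized counts (SD, n = 3), or -2.44 on the log2 scale (adjusted p = 3.54e-09), and -1.90 against replicate 2 alone. Slc38a5, a glutamine transporter, fell by 2.38 on the log2 scale, and Fgfr4, a fibroblast growth factor receptor, by 1.92. Against replicate 2 alone these were -1.62 and -0.83. In the libraries labelled Pear1-/-, 9 of 11 were lower with bleo, against 33.4% of all genes. Between the bleo groups, 3 of 11 were higher in the libraries labelled Pear1-/- and 0 lower, under the 46.0% of all genes that changed. Of 10 integrin partners and basement membrane genes linked to nephronectin, Itga8 among them, 7 fell and 2 rose in WT bleo, beside 68.0% of all genes that changed. The median log2 fold change was -1.86, and -1.22 against replicate 2 alone. In WT bleo 2 of the 10 were at or under 3 counts in every library, so the sizes of their changes are imprecise. Itgb3, the integrin beta 3 subunit, fell by 1.28 on the log2 scale.

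Genes of the lipid droplet did not follow Plin2 as a group. Of 14 tested, 4 rose and 6 fell with bleo in WT, at a median of -0.51. These 10 of 14 are close to the 68.0% of all genes that changed. Against replicate 2 alone 3 rose and 7 fell, at a median of -0.67, while without replicate 2, where 15 were tested, 6 rose and 7 fell and the median was 0.04. Hilpda, an inhibitor of droplet lipolysis, rose by 1.31 on the log2 scale (adjusted p = 1.61e-08), while G0s2, another inhibitor of lipolysis, fell from 2210.4 ± 329 to 395 ± 23.2 normalized counts (SD, n = 3, adjusted p = 6.62e-11). Dgat2, which makes triglyceride, fell by 1.31. Against WT bleo, 6 of 14 were higher and 0 lower in the libraries labelled Pear1-/- bleo, close to the 46.0% of all genes that changed, with Fitm2, a droplet budding protein, at 1.23 and Mgll, monoglyceride lipase, at 1.04. WT vehicle enters this comparison through the shared spread and scaling. Without its replicate 2, where 15 were tested, 8 were higher and 4 lower, against 49.2% of all genes that changed in that fit. The share therefore depended on the fit, while the median was 0.26 in the main fit and 0.27 with only replicate 2 kept.

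Genes that act with Lpl were as divided. Of 20 tested for lipase handling and fatty acid uptake, 7 were higher and 7 lower in WT bleo, a share like the 68.0% of all genes that changed, and the counts were the same against replicate 2 alone. Fabp5, a fatty acid binding protein, rose from 156 ± 8.6 to 899 ± 49.3 normalized counts (SD, n = 3, adjusted p = 4.51e-12), and Vldlr, a lipoprotein receptor, fell by 2.09 on the log2 scale. Angptl4, a secreted inhibitor of lipoprotein lipase, was 1.88 higher on the log2 scale with the label Pear1-/- bleo than with WT bleo (adjusted p = 1.54e-07). Gpihbp1, which anchors the lipase on capillaries, was 1.01 higher.

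Of 17 genes that work with PPAR gamma, 10 were higher and 5 lower in WT bleo, beside 68.0% of all genes that changed, and 9 and 4 against replicate 2 alone. Cebpa, a transcription factor of adipocyte and myeloid cells, rose from 101 ± 8.3 to 1111 ± 31.5 normalized counts (SD, n = 3, adjusted p = 8.28e-14). Klf15 and Cebpd, which are also transcription factors, fell by 2.71 and 1.91 on the log2 scale. Between the bleo groups, 8 were lower and 2 higher in the libraries labelled Pear1-/-, beside 46.0% of all genes. The 12 macrophage markers were all lower in that comparison too, and the part of those cells was not tested. Cebpb was at -1.89 and Cebpa at -1.65, in the direction of Pparg, and Klf15 was at 1.57.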

How the data were processed

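RNA-seq was measured in 12 libraries of sorted mouse lung cells. Per the methods, reads were aligned to GRCm38 with HISAT2; the counting program, its version and its use of strand are not given in the sources used here, and the submitters' notes name FastQC. The authors deposited raw counts per gene, and a second table of counts divided by a size factor per library, a depth-scaled signal called normalized counts here. Its ratio to the counts was equal, within a relative tolerance of 1e-06, for every gene of a library with a count above 0.

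Fold changes come from edgeR 4.0.16 (R 4.3.3): TMM, the default filter, 1 mean per group over all 12 libraries, glmQLFit and glmQLFTest with default options, two-sided, with Benjamini-Hochberg adjustment over 17418 genes. A gene passed both criteria with a fold change above 2 and adjusted p under 0.05. On data simulated for WT bleo against WT vehicle with 16704 genes, 81.3% and 70.2% of genes changed by 1 and -1 on the log2 scale, and 96% and 89.8% of those changed by 2 and -2, were recovered.

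edgeR's robust option was chosen and run after the results of the default options had been seen, so it stands as an alternative. It called 578 genes in place of 411 between the vehicle groups, and the member calls it changes are given beside them. Other alternatives were DESeq2 1.42.0 (its Wald test, and its size factors), limma 3.58.1 on log2(normalized count + 1) or + 0.5, no filter, a replicate block, only the groups compared, leaving out each library, and keeping only replicate 2 of WT vehicle, chosen after seeing the data.

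The members and gene lists were chosen with earlier results of these data known. Named genes are the 7 members, up to 3 genes per list with the largest changes past both criteria among those with mean log2 CPM not under 3, the genes most like each member, and Pdgfra and Pear1. A floor of 3 counts was between 0.287 and 0.448 CPM and covers counting error only. Levels per kilobase use the exon bases of all transcripts of a gene together (GENCODE M21), so ranks depend on that length. Promoter sequences are from RefSeq.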

Additional observations from a re-analysis of the deposited data

Results flagged for a closer look

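The change with bleo differed between WT and the libraries labelled Pear1-/- for 6 of the 7 genes by the test of the interaction (edgeR, adjusted p under 0.05), which 37.0% of all genes also reached. On the log2 scale it was 1.59 for Npnt, 1.16 for Limch1, 0.35 for Inmt, -0.54 for Plin2, -0.72 for Lpl and -1.35 for Pparg. The call of Inmt was lost in 13 of 20 alternatives. Values for Npnt and Limch1 rest in part on WT vehicle replicates 1 and 3. Macrophage markers also differed in their change with bleo, 11 of 12 by the same test, and their part in the values of Plin2, Lpl and Pparg was not tested.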

How the results depend on the processing

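In WT bleo against WT vehicle, every member kept its direction and an adjusted p under 0.05 in the 21 alternatives run, but not its side of a fold change of 2. The members past both criteria were 6, and 7 without WT vehicle replicate 1 or 3, without WT bleo replicate 1 and with no filter. With only replicate 2 of WT vehicle kept, Npnt, Limch1 and Plin2 came under a fold change of 2 and Pparg over it. Between the vehicle groups 1 member passed both criteria, and the count was 0 with limma at either pseudocount, with no filter on low counts, with the groups compared alone, with the replicate block, with robust estimation of the spread and with only replicate 2 of WT vehicle kept, and between 0 and 2 when 1 library was left out. The highest of these came without WT vehicle replicate 2, where 24.2% of all genes also passed both criteria. With only replicate 2 kept, the interaction of Npnt (0.69) and Limch1 (0.53) came under a fold change of 2, and that of Pparg (-1.80) did not. The vehicle differences of Lpl and Plin2 turned to -0.018 and -0.053. Robust estimation, chosen after seeing the data, lost the calls of Npnt between the vehicle groups (adjusted p = 0.0564) and between the bleo groups (adjusted p = 0.119), and changed no other member's call. The cause was not tested. Between the bleo groups Npnt lost its call in 10 of 21 alternatives. Genes called between the vehicle groups in all numbered 411, against 578 with robust estimation, 658 with DESeq2's Wald test, 4939 without WT vehicle replicate 2 and 0 without any 1 of the other 11 libraries, where between 2955 and 6917 genes had an unadjusted p under 0.05 in edgeR's test. Those 11 include bleo libraries, and leaving out a library also changed which genes passed the filter. Of 18 correlations between the deviations of same-numbered libraries, 0 were over 0.1, while a differently numbered pair of vehicle libraries reached 0.159. Bleo replicates differed by little more than counting noise, so such correlations can be low even for paired samples, and pairing stays undecided. With the replicate block 349 genes were called between the vehicle groups. Depth limits Slc7a10 and Pparg most.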
